A study of Mus musculus with 12 samples.

Results

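The 36 genes described here work in the endoplasmic reticulum (ER), the compartment in which secreted and membrane proteins are folded. They were listed by name as ER chaperones, genes of the unfolded protein response and genes of ER-associated degradation, and were matched to array probes by gene symbol or an alias of the same gene. Of the 36 genes, 35 had a probe, and 32 had a probe bright enough to be tested among 15909 features in all. Dnajb11, a DnaJ co-chaperone of the lumen, had no probe that names it. Manf (a secreted ER stress factor), Canx (calnexin) and Derl1 (derlin-1) had probes, but none of them exceeded the dim-probe limit of 7.78 log2 units on any of the 12 arrays.

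Gene expression was read on Illumina mouse BeadChips, on which each probe gives 1 brightness, deposited as a quantile-normalized log2 value. Mutant mice carried floxed Cftr with Villin-Cre (Apc+/+ Cftrfl/fl-Villin-Cre), so that the chloride channel gene Cftr is deleted in the cells in which the Villin promoter is active, the intestinal epithelium. Wild-type mice are given as Apc+/+ Cftr+/+-Villin-Cre in the genotype label and without Cre in the growth protocol. Both kinds of mice were C57BL/6, 3 months old and had intact Apc, and from each kind 3 small-intestinal and 3 colonic arrays were made. The design text instead words the mutants as lacking Apc function too; the genotype label was taken as the guide. The small-intestinal RNA came from duodenal wall after removal of the villi and therefore holds stroma and muscle beside epithelium, whereas the colonic RNA came from separated epithelium of the distal colon, although the extraction protocol speaks of whole colonic tissue. Every tissue comparison is thus also a comparison of a mixed wall with an epithelial preparation. Each mouse gave both tissues, but array numbers are not tied to mice, and nothing says more about separate RNA preparations, so each p-value reflects only how far these arrays spread.

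Proteins that enter the ER through the Sec61 channel are folded by chaperones and by disulfide isomerases, and those that fail are pulled back to the cytosol and destroyed. When unfolded proteins build up, the sensors Ire1 (Ern1), Perk (Eif2ak3) and Atf6 raise the transcription of chaperone and degradation genes, and the Perk branch passes through the transcription factors Atf4 and Chop (Ddit3). In the gut, goblet, Paneth and other secretory cells carry a heavy load of secreted protein and depend on this pathway. Human CFTR is itself a protein whose common disease variant misfolds in the ER, but the mice studied here were bred to lack the channel in the intestinal epithelium and do not carry that variant.

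A short sequence is shared by some of these genes, which were listed by name and not by sequence. The ER stress element, the letters CCAAT followed by 9 bases of any kind and then CCACG, is the site through which Atf6, together with the factor NF-Y, acts on chaperone promoters. It was searched for on both strands in the RefSeq promoter windows of the GRCm38.p6 assembly, which run from 250 bases before to 50 bases after each gene start. Windows were present for 30 of the 36 genes, and 9 of these 30 genes (30%) held the element, against 37 of all 27025 genes with a window (0.137%). A related element, ATTGG followed by 1 base of any kind and then CCACG, was in 2 of the 30 genes (6.67%) and in 12 of all genes (0.0444%), and the core TGACGTGG of the site bound by Xbp1 was in none of the 30 genes and in 0.714% of all genes. The ER stress element contains the shorter motifs CCAAT and CCACG by construction, which on their own were in 76.7% and 80% of the 30 genes and in 41.1% and 35.5% of all genes. The genes were listed for their part in ER folding and stress, so a share above that of all genes follows partly from the choice. A match is a description of the letters, and an absent match says only that they are not in this window.

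The windows below show the element in genes whose expression is followed further on, written along the strand of the gene with the 2 fixed blocks of the element in capitals. Hspa5 encodes BiP, the main Hsp70 chaperone of the ER, and its element lies at chr2:34772015-34772053 on the plus strand. Hsp90b1 encodes Grp94, the Hsp90 of the ER, and has 2 elements, at chr10:86705628-86705666 and chr10:86705523-86705561 on the minus strand, the second in the opposite orientation. Creld2, a secreted ER stress protein with disulfide isomerase activity, holds the element at chr15:88819510-88819548 on the plus strand in the opposite orientation. Derl3, a derlin of the degradation channel, holds it at chr10:75893232-75893270 on the plus strand, also in the opposite orientation. Syvn1, the degradation ubiquitin ligase Hrd1, holds it at chr19:6046522-6046560 on the plus strand. Herpud1, a membrane protein that assembles the Hrd1 complex, holds the related element at chr8:94386367-94386397 on the plus strand, with the whole match in capitals. The other 5 genes with one of the elements were Calr, Canx, Dnajc3, Pdia6 and Dnajb11.
Hspa5: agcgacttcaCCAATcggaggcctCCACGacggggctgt
Hsp90b1, first: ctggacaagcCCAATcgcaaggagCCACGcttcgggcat
Hsp90b1, second: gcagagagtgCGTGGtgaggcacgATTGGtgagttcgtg
Creld2: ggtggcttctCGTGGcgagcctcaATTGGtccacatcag
Derl3: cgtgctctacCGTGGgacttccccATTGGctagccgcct
Syvn1: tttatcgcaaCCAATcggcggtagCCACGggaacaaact
Herpud1: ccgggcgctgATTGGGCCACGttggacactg

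The targeted gene was read first. Cftr had 8.12, 8.11 and 8.30 in mutant small intestine, against 8.28, 8.20 and 8.20 in wild-type small intestine, and 7.94, 8.21 and 8.19 in mutant colon, against 8.13, 7.95 and 7.97 in wild-type colon. The genotypes overlapped in both tissues, and neither difference passed (limma adjusted p = 0.998 and 0.956). Whether the probe lies in the deleted part of the gene is not analysed here, so the genotype labels are not checked by it. The tissue labels were borne out by markers: the mean of 9 absorptive enterocyte markers was 12.7 to 12.8 in mutant and 12.8 to 13.1 in wild-type small intestine, against 8.01 to 8.58 in mutant and 8.11 to 8.13 in wild-type colon. The mean of 7 colonocyte markers lay the other way. It was 9.23 to 9.46 in mutant and 9.15 to 9.26 in wild-type small intestine, against 11.57 to 11.83 in mutant and 11.59 to 11.79 in wild-type colon. Of these markers, Slc9a3 overlapped between the tissues. Of 9 epithelial markers, 8 were bright in every group, and Epcam stayed near the limit throughout. Among the small-intestinal arrays, mutant 1, mutant 2 and wild type 2 stood apart, with pancreatic enzyme RNA: the mean of 17 measured acinar markers was 9.83, 11.08 and 8.04 on the mutant arrays and 8.14, 11.28 and 8.13 on the wild-type arrays. In colon the same mean was 8.33 to 8.53 in mutant and 8.52 to 8.58 in wild-type mice. Of these markers Cela1, Clps and Sycn were bright on all colonic arrays. Mutant array 3 of each tissue stood apart in heat-shock genes: Hspa1a, the inducible cytosolic Hsp70, had 7.88, 7.78 and 9.81 in mutant and 7.93, 8.08 and 7.92 in wild-type small intestine, and 7.97, 7.80 and 9.80 in mutant and 7.95, 8.10 and 7.90 in wild-type colon. Its co-chaperone Dnajb1 had 10.61, 10.33 and 11.36 in mutant and 10.59, 10.56 and 10.61 in wild-type small intestine, and 10.68, 10.60 and 11.53 in mutant and 10.66, 10.74 and 10.55 in wild-type colon. Colonic mutant array 2 stood apart with RNA of small-intestinal genes, reading 13.47 for the Paneth cell defensin Defa20, against 7.66 to 8.32 on the other colonic arrays, and 10.12 for the apolipoprotein Apoa1, against 7.72 to 7.99. Across the whole table, 108 features (0.679%) passed the genotype test in small intestine and 0 in colon, and 6301 (39.6%) and 6590 (41.4%) passed the tissue test in mutant and in wild-type mice.

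Many of these ER genes differed between the tissues, and none passed the test between the genotypes. In mutant mice 14 of 32 genes passed the test of small intestine against colon, 9 higher and 5 lower, and in wild-type mice 16 of 32 passed, 10 higher and 6 lower. These shares, 43.8% and 50%, stand beside 39.6% (17.4% higher and 22.2% lower) and 41.4% (17.9% higher and 23.5% lower) of all features, so the share of ER genes that differed was near that of the whole table. The median difference was 0.015 in mutant and 0.016 in wild-type mice, against -0.015 and -0.019 over all features. All 14 genes that passed in mutant mice also passed in wild-type mice, with the same sign. Without both arrays high in heat-shock genes, an alternative chosen after seeing the data, 10 genes passed in mutant mice, all among the 14, and 16 in wild-type mice. Of all features 5168 and 6503 passed there. Without colonic mutant array 2 the counts were 12 and 16, beside 5812 and 6530 of all features. In bulk RNA, fewer cells of a type and less RNA per cell cannot be told apart.

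**Figure D1:**
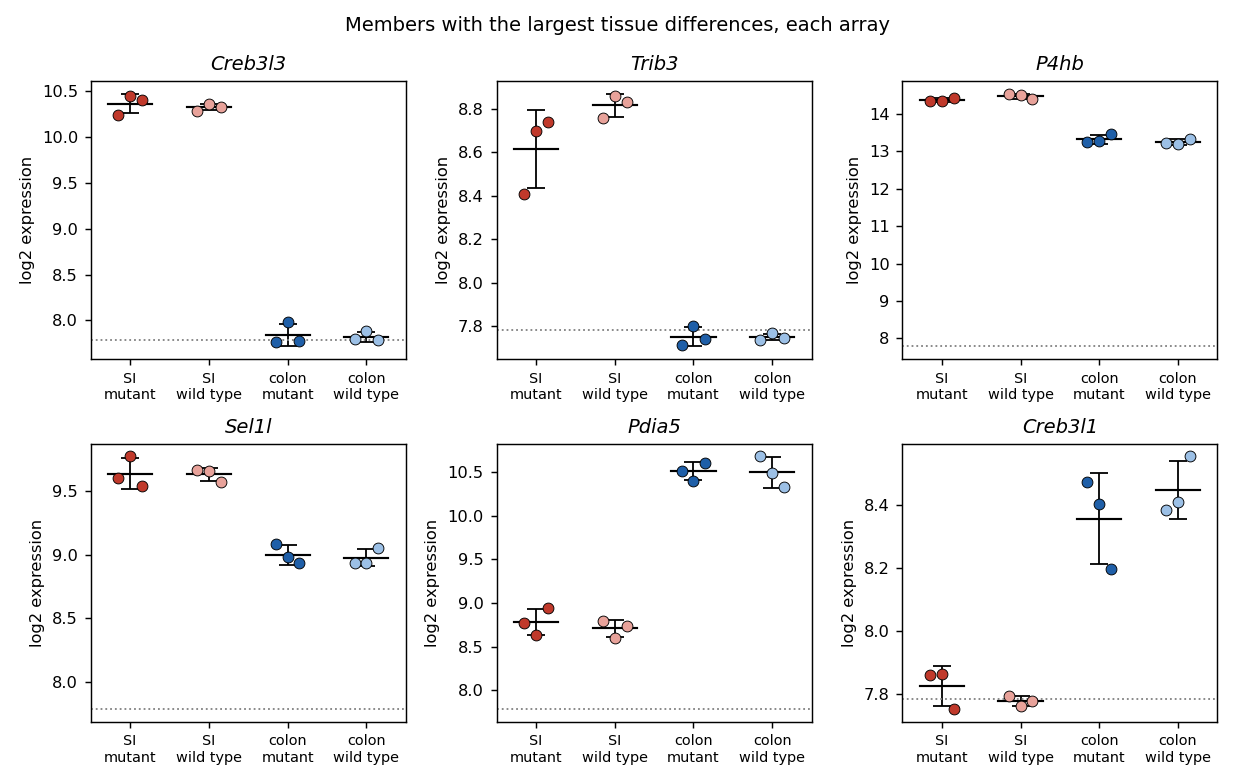
Log2 expression on each of the 12 arrays for 6 members with large tissue differences that passed in both genotypes. Points are arrays, lines are group means with SD (n = 3 each), and the dotted line is the dim-probe limit of 7.78; each panel has its own vertical axis, and in all 6 panels the small-intestinal points are apart from the colonic points.

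The largest tissue difference belonged to Creb3l3, an ER membrane-bound transcription factor that is cut like Atf6 and is known from liver and small intestine as a regulator of lipid genes. It had 10.24, 10.45 and 10.40 in mutant and 10.29, 10.36 and 10.33 in wild-type small intestine, against 7.77, 7.98 and 7.77 in mutant and 7.80, 7.89 and 7.78 in wild-type colon. All 6 small-intestinal arrays lay above 10.2 and the colonic arrays lay between 7.77 and 7.98, with 1 of the 3 mutant and 2 of the 3 wild-type ones above the dim-probe limit. The difference was 2.53 ± 0.067 in mutant and 2.50 ± 0.067 in wild-type mice (log2, SE), against colonic values near the floor (limma adjusted p = 1.08e-09 and 9.26e-10). The highest colonic value was that of mutant array 2, and without it the difference in mutant mice was 2.60. Its relative Creb3l1, known from bone and secretory cells, differed in the other direction. Creb3l1 had 7.86, 7.86 and 7.75 in mutant and 7.79, 7.76 and 7.78 in wild-type small intestine, against 8.47, 8.40 and 8.19 in mutant and 8.38, 8.41 and 8.55 in wild-type colon. Only 2 of the 3 mutant and 1 of the 3 wild-type small-intestinal arrays exceeded the limit, so its differences of -0.53 ± 0.069 and -0.67 ± 0.069 start from near the floor of the array (limma adjusted p = 1.36e-04 and 2.16e-05). Averaged over both Creb3l1 probes they were -0.31 and -0.40.

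Disulfide isomerases split between the tissues. P4hb, the founding protein disulfide isomerase and a subunit of collagen prolyl hydroxylase, had 14.33, 14.35 and 14.42 in mutant and 14.52, 14.50 and 14.39 in wild-type small intestine, against 13.25, 13.26 and 13.47 in mutant and 13.22, 13.20 and 13.33 in wild-type colon. Every small-intestinal array was higher than every colonic one, by 1.04 ± 0.064 in mutant and 1.22 ± 0.064 in wild-type mice (2.05-fold and 2.33-fold, limma adjusted p = 4.89e-07 and 1.27e-07). Pdia5, another isomerase of the family, was lower in small intestine, with 8.77, 8.64 and 8.94 in mutant and 8.80, 8.60 and 8.74 in wild-type mice, against 10.52, 10.40 and 10.61 in mutant and 10.68, 10.49 and 10.33 in wild-type colon. Its difference was -1.73 ± 0.10 in mutant and -1.79 ± 0.10 in wild-type mice, a level 3.32-fold and 3.45-fold lower than in colon (limma adjusted p = 3.39e-07 and 2.35e-07). Averaged over the 3 Pdia5 probes it was -0.98 in mutant and -0.96 in wild-type mice. Pdia3 (ERp57), which works with calnexin and calreticulin on glycoproteins, was also lower, with a difference of -0.32 ± 0.073 in mutant and -0.35 ± 0.073 in wild-type mice (limma adjusted p = 0.00499 and 0.00264). Without the 3 arrays with pancreatic RNA, which leaves 1 mutant small-intestinal array, array 3, whose spread is then taken from the other groups, the Pdia3 difference in mutant mice was -0.13 and no longer passed (limma adjusted p = 0.181). Calr, Pdia4 and Pdia6 did not pass in either genotype, with differences from -0.13 to -0.021 in mutant and from -0.11 to -0.090 in wild-type mice.

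Chaperones that passed were all higher in small intestine, 3 of 7 in mutant and 4 of 7 in wild-type mice, with a median difference over the 7 of 0.159 and 0.131. Of all features 17.4% were higher in mutant and 17.9% in wild-type mice. Hsp90b1 had 11.52, 11.88 and 11.95 in mutant and 11.77, 11.84 and 11.67 in wild-type small intestine, against 11.09, 11.28 and 11.52 in mutant and 11.06, 11.14 and 11.20 in wild-type colon. The tissues did not overlap in either genotype, although mutant small-intestinal array 1 lay above the highest mutant colonic array, array 3, by less than 0.01. Its difference was 0.49 ± 0.12 in mutant and 0.63 ± 0.12 in wild-type mice (limma adjusted p = 0.00899 and 0.00177), and the mutant call was lost with mutant arrays fitted alone (limma adjusted p = 0.0514). Dnajb9 (ERdj4), a co-chaperone of BiP, averaged 9.45 ± 0.14 in small intestine and 9.26 ± 0.058 in colon of mutant mice (SD, n = 3 each), a difference of 0.19 ± 0.10 that did not pass (limma adjusted p = 0.167). In wild-type mice it averaged 9.59 ± 0.12 in small intestine and 9.16 ± 0.18 in colon, and the difference of 0.43 ± 0.10 passed (limma adjusted p = 0.00551). Whether these differ between the genotypes is the test of the difference between contrasts given further on, which Dnajb9 did not pass. A second, dimmer Dnajb9 probe was higher in small intestine in both genotypes. It differed by 0.21 ± 0.053 in mutant and 0.25 ± 0.053 in wild-type mice (limma, unadjusted p = 0.00278 and 0.000681).

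Hspa5 and Hyou1 (Grp170, a nucleotide exchange factor of BiP) passed with small differences near the limit. The single Hspa5 probe had 7.82, 7.92 and 7.96 in mutant and 7.91, 7.85 and 7.86 in wild-type small intestine, against 7.79, 7.77 and 7.81 in mutant and 7.78, 7.77 and 7.73 in wild-type colon, and all 3 wild-type colonic arrays were under the limit. Its difference was 0.11 ± 0.037 in mutant and 0.11 ± 0.037 in wild-type mice, which in wild type is at least 1.06-fold (limma adjusted p = 0.0374 and 0.0373). A bound of this kind sets the brighter group against the higher of the dim probe's own value and the limit on each array. Hyou1 differed by 0.16 ± 0.043 and 0.13 ± 0.043 (limma adjusted p = 0.0138 and 0.0332). All 4 calls were lost without some single arrays. For Hspa5 these were each of the 6 wild-type arrays in the wild-type comparison (limma adjusted p from 0.0546 to 0.125), and in the mutant one each mutant colonic array, mutant small-intestinal arrays 2 and 3 and wild-type small-intestinal array 3 (limma adjusted p from 0.0528 to 0.137). For Hyou1 they were wild-type colonic arrays 1 and 2 and each wild-type small-intestinal array in the wild-type comparison (limma adjusted p from 0.0517 to 0.116), and array 3 of either mutant group in the mutant one (limma adjusted p from 0.0515 to 0.0553). Dnajc3 (P58IPK, a BiP co-chaperone and inhibitor of Perk), Sdf2l1 (an ER stress-inducible partner of BiP complexes) and Creld2 did not pass in either genotype.

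Of the degradation genes, Sel1l, the adaptor that holds the Hrd1 ligase complex together, was higher in small intestine. It had 9.60, 9.77 and 9.54 in mutant and 9.66, 9.66 and 9.57 in wild-type mice, against 9.09, 8.98 and 8.93 in mutant and 8.94, 8.93 and 9.05 in wild-type colon. The 2 tissues did not overlap, and the difference was 0.64 ± 0.065 in mutant and 0.66 ± 0.065 in wild-type mice (limma adjusted p = 2.05e-05 and 1.45e-05). Averaged over its 4 probes it was 0.24 in mutant and 0.27 in wild-type mice. Derl3 stayed between 7.68 and 7.90 on all 12 arrays and under the limit on every colonic array, and its differences of 0.091 ± 0.033 and 0.13 ± 0.033 are at least 1.02-fold and 1.03-fold (limma adjusted p = 0.0485 and 0.00763). Edem1, a lectin that hands misfolded glycoproteins to degradation, was lower in small intestine, with differences of -0.16 ± 0.056 in mutant and -0.16 ± 0.056 in wild-type mice (limma adjusted p = 0.0379 and 0.0442). Without some single arrays these calls were lost too: that of Derl3 in mutants without any 1 colonic array, mutant small-intestinal array 1 or 3 or wild-type small-intestinal array 2 or 3 (limma adjusted p from 0.0547 to 0.151), and that of Edem1 in wild type without any 1 wild-type array or array 3 of either mutant group (0.0571 to 0.137). In mutants the Edem1 call was lost without colonic mutant array 1 or 3, colonic wild-type array 1 or 2, small-intestinal mutant array 2 or 3 or small-intestinal wild-type array 3 (limma adjusted p from 0.0505 to 0.140), and without small-intestinal mutant array 2 the difference was -0.11. The ligase Syvn1 and Herpud1 did not pass, with differences of -0.21 and 0.011 in mutant and -0.038 and 0.19 in wild-type mice.

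**Figure D2:**
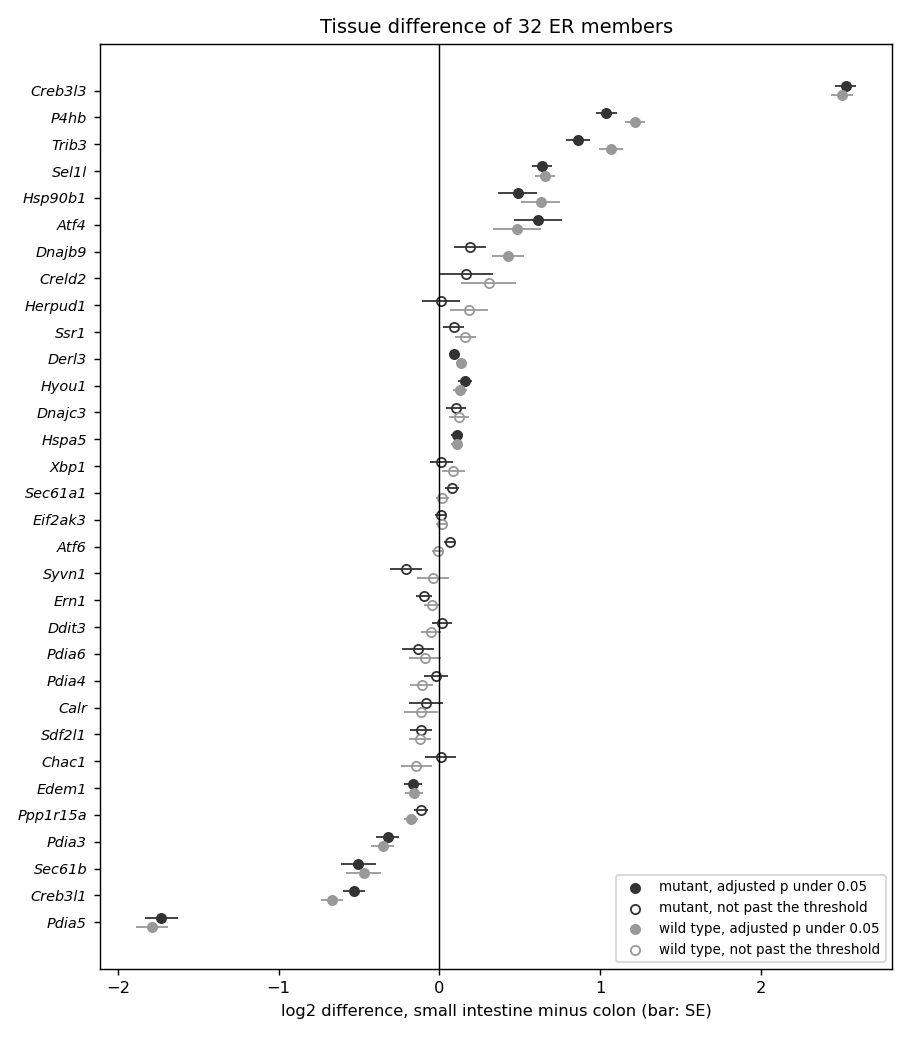
Log2 difference of small intestine minus colon for the 32 tested members, in mutant mice (dark) and wild-type mice (grey), with the SE of the fit as bars. Filled points passed limma at an adjusted p of 0.05, 14 in mutant and 16 in wild-type mice; Creb3l3 stands far to the right, Pdia5 far to the left, and most members lie near 0.

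Of the sensors and factors among the 36 genes, Ern1, Eif2ak3, Atf6 and Xbp1, the factor whose RNA Ire1 splices, did not pass in either genotype. The 95% interval of the tissue difference of Xbp1 ran from -0.15 to 0.17 in mutant and from -0.074 to 0.24 in wild-type mice. Over the 12 arrays Eif2ak3 did not exceed 7.91 and Atf6 did not exceed 7.84, near the floor, where differences are compressed. The arrays do not separate spliced from unspliced Xbp1, which is not analysed here.

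In the Perk branch, Atf4 and its target Trib3 were higher in small intestine. Atf4, the transcription factor whose translation rises when Perk is active, had 10.90, 11.54 and 11.51 in mutant and 11.14, 11.01 and 11.16 in wild-type small intestine, against 10.67, 10.59 and 10.85 in mutant and 10.70, 10.56 and 10.61 in wild-type colon. Every small-intestinal array was above every colonic array, with mutant array 1 only just so, and the difference was 0.61 ± 0.15 in mutant and 0.48 ± 0.15 in wild-type mice (limma adjusted p = 0.00698 and 0.0225). The wild-type call was lost without wild-type colonic array 2 or 3 or wild-type small-intestinal array 1 or 3, with limma adjusted p of 0.0707, 0.0551, 0.0626 and 0.0689. Averaged over both Atf4 probes the wild-type difference was 0.29. On the second probe alone, which lay between 9.45 and 10.06, it was 0.10 ± 0.077, and the wild-type tissues overlapped (limma, unadjusted p = 0.213). In mutant mice the second probe differed by 0.24 ± 0.077 (limma, unadjusted p = 0.0105). Trib3, a pseudokinase that restrains this branch, had 8.41, 8.70 and 8.74 in mutant and 8.76, 8.86 and 8.83 in wild-type small intestine, against 7.71, 7.80 and 7.74 in mutant and 7.74, 7.77 and 7.74 in wild-type colon. All wild-type and 2 of 3 mutant colonic arrays were under the limit. Its difference was 0.86 ± 0.074 in mutant and 1.07 ± 0.074 in wild-type mice, at least 2.05-fold in wild type (limma adjusted p = 5.72e-06 and 1.01e-06). Averaged over its 3 probes it was 0.35 in mutant and 0.42 in wild-type mice.

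Of the other genes downstream of Perk among the 36, none was higher in small intestine by the test. Ddit3, the transcription factor Chop, had a difference of 0.018 ± 0.062 in mutant and -0.052 ± 0.062 in wild-type mice, and Chac1, a glutathione-degrading Atf4 target, had 0.0079 ± 0.10 and -0.14 ± 0.10. Neither passed. Ppp1r15a (Gadd34), the phosphatase subunit that ends the block of translation, was lower in wild-type small intestine, with a difference of -0.18 ± 0.046 (limma adjusted p = 0.0103), and did not pass in mutants, at -0.11 ± 0.046 (limma adjusted p = 0.0740). Without the 3 arrays with pancreatic RNA the wild-type difference was -0.15 and no longer passed (limma adjusted p = 0.0707). Ppp1r15a also responds to tissue handling, and 16 markers of that response averaged 9.04 to 9.37 in mutant and 8.89 to 9.03 in wild-type small intestine, against 9.22 to 9.53 in mutant and 9.23 to 9.24 in wild-type colon. Among them Zfp36 and Hsph1 lay the other way, higher on every wild-type small-intestinal array than on every wild-type colonic one. The list includes heat-shock genes, and the highest mean of each mutant group is that of array 3. The part of handling in the Ppp1r15a difference was not tested. Of the channel genes, Sec61b, a small subunit of the Sec61 channel, was lower in small intestine, with differences of -0.51 ± 0.11 in mutant and -0.47 ± 0.11 in wild-type mice (limma adjusted p = 0.00356 and 0.00508), while its pore subunit Sec61a1 and Ssr1, of the signal-sequence receptor beside the channel, did not pass.

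Markers of several cell types moved with the tissue. The mean of 7 smooth muscle markers was 10.1 to 10.3 in both small-intestinal groups, against 7.76 to 7.93 in both colonic groups, in each of which 3 of the 7 were under the limit on all arrays. The 6 measured plasma and B cell markers averaged 8.25 to 8.68 in mutant and 8.47 to 8.53 in wild-type small intestine, against 7.75 to 7.77 in mutant and 7.76 to 7.77 in wild-type colon. Among them Ms4a1 overlapped between the tissues in both genotypes. Goblet cell markers, 9 in number, averaged 11.2 to 11.4 in mutant and 10.9 to 11.0 in wild-type small intestine, against 12.1 to 12.3 in mutant and in wild-type colon. Paneth cell markers averaged 11.9 to 12.1 in mutant and 11.9 to 12.2 in wild-type small intestine, against 8.84, 10.3 and 8.46 in mutant and 8.17 to 8.87 in wild-type colon, where the high value is that of mutant array 2. Among the Paneth cell markers Ang4 overlapped between the tissues in both genotypes. It had 13.15, 12.37 and 12.88 in wild-type small intestine, against 13.65, 13.60 and 10.58 in wild-type colon. The part of these cells in the ER gene differences was not tested.

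Genes of the same pathway outside the 36 were read from 6 further lists, and 107 of 128 were bright enough to be tested. In mutant mice 18 were higher and 28 lower in small intestine, and in wild-type mice 19 were higher and 31 lower, with a median difference of -0.040 and -0.054. These are 16.8% higher and 26.2% lower in mutant and 17.8% higher and 29% lower in wild-type mice, near the shares of all features (17.4% and 22.2%, 17.9% and 23.5%). Among other stress sensors and factors, Ern2, the Ire1 form of gut and airway epithelium, averaged 10.43 ± 0.051 in mutant and 10.35 ± 0.11 in wild-type small intestine, against 12.69 ± 0.17 in mutant and 12.91 ± 0.20 in wild-type colon (SD, n = 3 each), a difference of -2.56 ± 0.11 in wild type (limma adjusted p = 2.16e-08). It is known as a goblet cell gene, and its direction is that of the mean of the goblet markers above. Among those markers Tff3 lay the other way, and Zg16 and Fcgbp overlapped between the tissues, as did Spink4 in mutant mice. The part of goblet cells in the Ern2 difference was not tested. Creb3l4, an ER-bound factor related to Creb3l1, was also lower in wild-type small intestine, with a difference of -1.19 ± 0.055 (limma adjusted p = 4.53e-08).

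The other lists held genes of both directions, and their counts stand beside those same shares. Of 21 further Atf4 and Chop targets, 6 were higher and 8 lower in mutant mice and 5 higher and 9 lower in wild-type mice: Aldh18a1, a proline synthesis enzyme, was higher by 1.48 ± 0.13 and Nupr1, a stress-induced nuclear protein, lower with a difference of -3.83 ± 0.18 in wild type. Of 19 other folding enzymes, 2 were higher and 7 lower in each genotype, among them Dnajc10 (the ER reductase ERdj5) with -1.0 ± 0.048 and the prolyl isomerase Fkbp11 with -0.96 ± 0.076 in wild type. Of 14 genes of N-glycan handling, 3 were higher and 2 lower in mutant mice and 3 higher and 1 lower in wild-type mice, and the highest were the paired cargo receptor subunits Mcfd2 and Lman1, with 0.92 ± 0.10 and 0.55 ± 0.089 in wild type. Of 18 other degradation factors, 1 was higher and 5 lower in mutant mice and 2 higher and 7 lower in wild-type mice, with the lectin Erlec1 at -0.56 ± 0.071 and the mannosidase-like Edem2 at 0.39 ± 0.052 in wild type. Of 20 translocation genes, 1 was higher and 3 lower in mutant mice and 2 higher and 4 lower in wild-type mice, with Ssr4, of the signal-sequence receptor, at -0.59 ± 0.067 and the channel neighbour Tram1 at 0.22 ± 0.055. The limma adjusted p of these 10 wild-type differences lay between 4.55e-08 and 0.00830.

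No ER gene passed the test of mutant against wild type in either tissue. In small intestine 0 of 32 passed, beside 0.679% of all features, and in colon 0 of 32 passed, beside 0% of all features. The lowest limma adjusted p among them was 0.258 in small intestine and 0.938 in colon. At an unadjusted p under 0.05, limma counted 4 of 32 genes in small intestine, beside 8.17% of all features, and 0 of 32 in colon, beside 5.1%. The median difference of mutant minus wild type was 0.013 in small intestine and 0.022 in colon, against 0.000 in each over all features. The 95% intervals bound the difference in probe brightness. In small intestine those of 31 of the 32 genes lay within 0.5 log2 units of 0, and 26 lay within 0.3. The exception to 0.5 was Atf4, with an upper bound of 0.54. In colon 31 of 32 lay within 0.5, the exception being Creld2 with an upper bound of 0.61. Probes near the floor, among them those of Hspa5, Hyou1, Derl3, Eif2ak3 and Atf6, and in colon Trib3 and Creb3l3, show compressed differences. Their narrow intervals do not limit how far the RNA itself could differ.

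**Figure D3:**
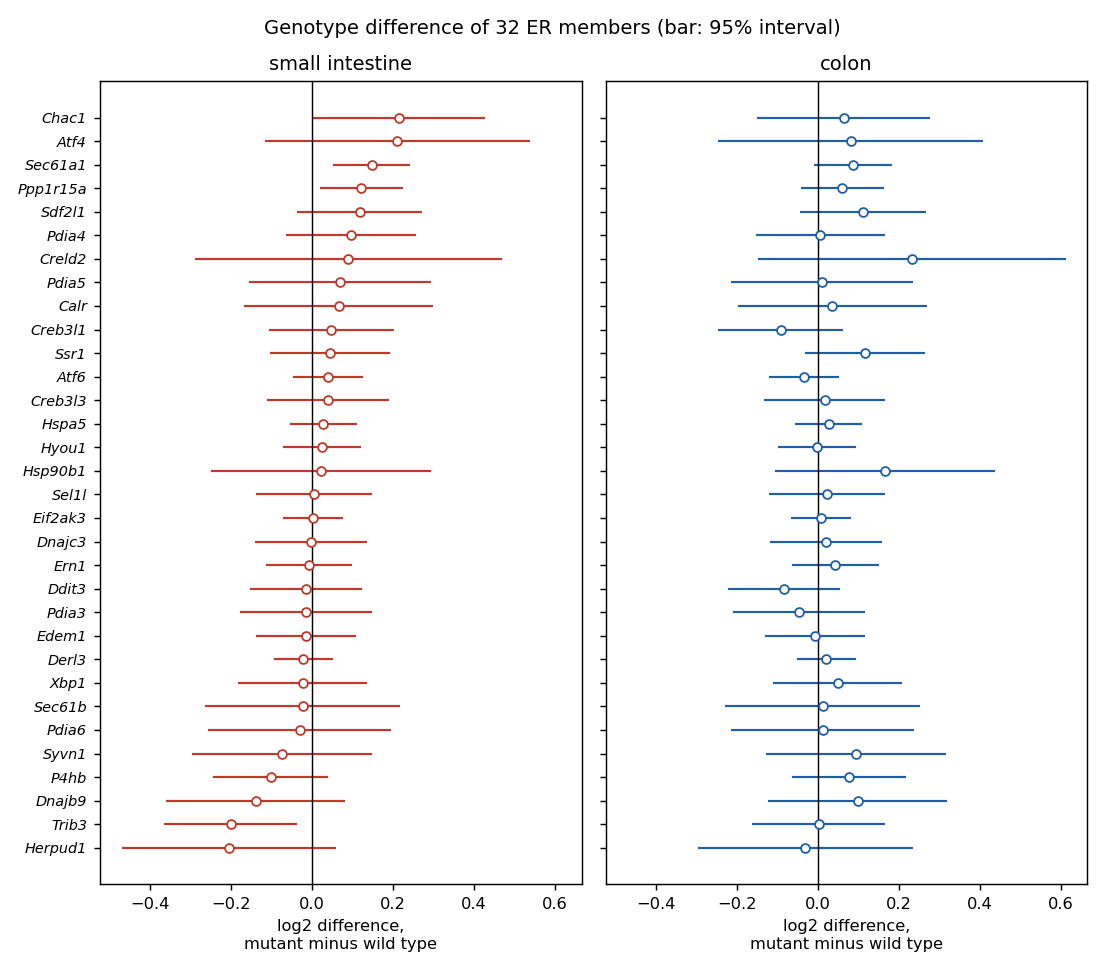
Log2 difference of mutant minus wild type for the 32 tested members in small intestine (left, red) and colon (right, blue), with 95% intervals of the limma fit. None passed an adjusted p of 0.05, and all point estimates lie between -0.21 and 0.23.

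Sec61a1 had the smallest p in both tissues. It had 9.87, 9.93 and 10.01 in mutant, against 9.77, 9.80 and 9.78 in wild-type small intestine, so that the 2 groups did not overlap. The difference was 0.15 ± 0.043 (limma adjusted p = 0.258). In colon it had 9.81, 9.83 and 9.91 in mutant, against 9.77, 9.71 and 9.82 in wild type, overlapping groups that differed by 0.087 ± 0.043 (limma adjusted p = 0.938). A second, dimmer Sec61a1 probe gave -0.032 ± 0.035 in small intestine. Ssr1, which sits beside the channel, had 8.85, 8.69 and 8.69 in mutant and 8.74, 8.62 and 8.52 in wild-type colon, a difference of 0.12 ± 0.067 (limma adjusted p = 0.938), and 0.044 ± 0.067 in small intestine.

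The outputs of the Perk branch held the next 3 small p-values in small intestine, with different signs. Trib3 was lower on each mutant than on each wild-type array in the values given above, with a difference of -0.20 ± 0.074 (limma adjusted p = 0.428). Ppp1r15a had 8.12, 8.11 and 8.08 in mutant, against 8.04, 7.93 and 7.97 in wild-type small intestine. The groups did not overlap, and the difference was 0.12 ± 0.046 (limma adjusted p = 0.446). Chac1 had 8.29, 8.09 and 7.92 in mutant, against 7.87, 7.85 and 7.93 in wild-type small intestine, where mutant arrays 1 and 2 were the high ones and mutant array 3 lay among the wild-type arrays, for a difference of 0.22 ± 0.10 (limma adjusted p = 0.606). Ddit3 averaged 8.39 ± 0.082 in mutant and 8.40 ± 0.075 in wild-type small intestine (SD, n = 3 each). In colon Ddit3 had 8.33, 8.37 and 8.42 in mutant, against 8.44, 8.57 and 8.36 in wild type, a difference of -0.084 ± 0.062 between overlapping groups (limma adjusted p = 0.947). Groups that did not overlap were found for 3 of the 32 genes in small intestine, Sec61a1, Ppp1r15a and Trib3, beside 13.5% of all features, and for 0 of 32 in colon, beside 8.87%.

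Atf4 was the one gene whose genotype call depended on a single array. With the values given above, mutant small-intestinal arrays 2 and 3 lay above all wild-type arrays and mutant array 1 lay below them, and the difference was 0.21 ± 0.15 (limma adjusted p = 0.886). Without mutant array 1 the difference was 0.42 ± 0.077 and passed (limma adjusted p = 0.0493). This was the only genotype call of any of the 32 genes in any of the alternatives tried. Array 1 is 1 of the 3 arrays with pancreatic RNA, and without all 3 of those Atf4 differed by 0.36, a value that sets mutant array 3 alone against 2 wild-type arrays. A second Atf4 probe had 10.06, 9.75 and 9.87 in mutant, against 9.73, 9.64 and 9.69 in wild-type small intestine: here mutant array 1 was the highest, and the difference was 0.21 ± 0.077 (limma, unadjusted p = 0.0211). The 2 probes therefore gave the same mean difference but ranked mutant array 1 at opposite ends. In colon Atf4 differed by 0.082 ± 0.15 (limma adjusted p = 0.992).

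Chaperone and degradation genes with ER stress elements did not pass either. Among the 8 tested genes with the first of these elements, the difference of mutant minus wild type ran from -0.075 to 0.090 in small intestine and from 0.013 to 0.233 in colon. Herpud1 had 11.89, 12.17 and 12.30 in mutant, against 12.25, 12.52 and 12.20 in wild-type small intestine, with mutant array 1 lowest and wild-type array 2 highest, for a difference of -0.21 ± 0.12 (limma adjusted p = 0.787). These 2 arrays are among the 3 with pancreatic RNA, and without the 3 the difference was 0.074, of the opposite sign, with mutant array 3 alone set against 2 wild-type arrays. Sdf2l1, whose window held neither element, had 8.80, 8.69 and 8.91 in mutant, against 8.71, 8.65 and 8.69 in wild-type small intestine, and 8.94, 8.79 and 9.01 in mutant, against 8.80, 8.90 and 8.71 in wild-type colon. The groups overlapped in both tissues, and the differences were 0.12 ± 0.070 and 0.11 ± 0.070 (limma adjusted p = 0.803 and 0.941).

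In colon the widest spread was that of Creld2. It had 9.13, 9.12 and 9.65 in mutant, against 9.10, 9.20 and 8.90 in wild type, where mutant array 3 stood above the other 5. Its difference was 0.23 ± 0.17 (limma adjusted p = 0.946). Hsp90b1, with the colonic values given above, also had its highest colonic value on mutant array 3, with a mutant difference of 0.17 ± 0.12 (limma adjusted p = 0.946). That array is 1 of the 2 that are high in heat-shock genes, and without both the colonic differences were 0.058 for Creld2 and 0.057 for Hsp90b1. The genotype difference of Hspa5 was 0.028 ± 0.037 in small intestine and 0.027 ± 0.037 in colon, from a probe that lay near the floor in both tissues.

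The genotype differences of the 2 tissues were then set against each other. For none of the 32 genes did the difference in small intestine differ from that in colon by the test of the difference itself (limma, 0 of 32 and 0% of all features at an adjusted p under 0.05, and 0 of 32 at an unadjusted p under 0.05, beside 5.93% of all features). The smallest p belonged to P4hb, with -0.10 ± 0.064 in small intestine and 0.077 ± 0.064 in colon, then Trib3 and Dnajb9, and the lowest limma adjusted p was 0.889. Dnajb9 had -0.14 ± 0.10 in small intestine and 0.10 ± 0.10 in colon (limma adjusted p of the difference = 0.915). Of the 107 other pathway genes, 0 passed in small intestine and 0 in colon, with 5 (4.67%) and 8 (7.48%) at an unadjusted limma p under 0.05, beside 8.17% and 5.1% of all features.

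**Figure D4:**
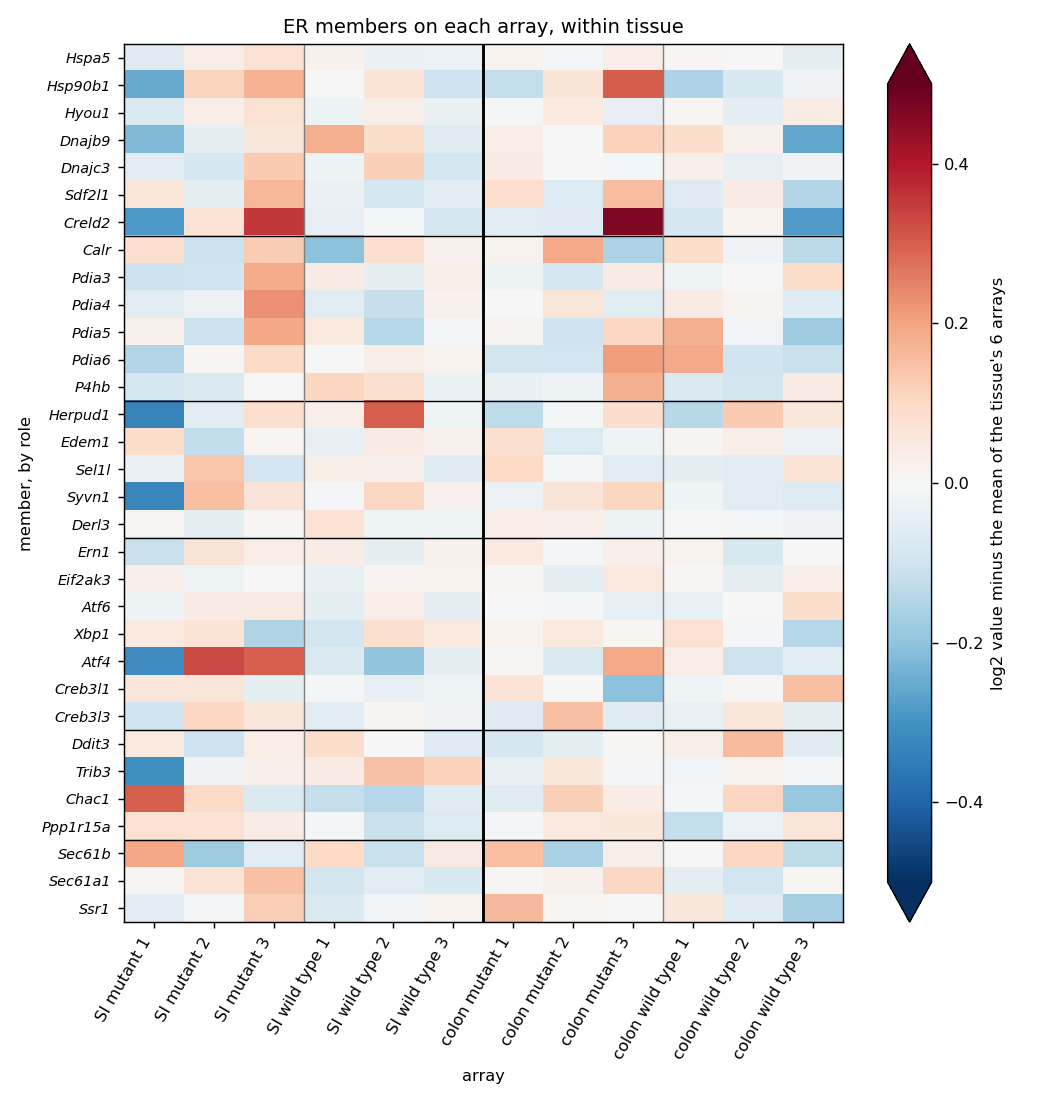
Each tested member on each array, as its log2 value minus the mean of the 6 arrays of its tissue, with members ordered by role (horizontal lines) and arrays by group. Red is above and blue below the tissue mean, on a scale cut at 0.5. Across chaperones and isomerases, small-intestinal mutant array 3 lies above the mean. Mutant array 1 of that tissue lies below it for most of them, but above it for Sdf2l1, Calr and Pdia5. Colonic mutant array 3 lies above it for most, but below it for Hyou1, Dnajc3, Calr and Pdia4.

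Some single arrays were high or low across many of these genes. Small-intestinal mutant array 1 was the lowest of the 6 small-intestinal arrays for 14 of 32 genes (43.8%), against 23.5% of all features, and mutant array 3 was the highest for 14 of 32 (43.8%), against 18.5% of all features. The 14 genes highest on array 3 included Hspa5, Hsp90b1, Hyou1, Creld2, Calr and Pdia3 to Pdia6, and 6 of the chaperones and isomerases among them, Hspa5, Hsp90b1, Hyou1, Creld2, Pdia3 and Pdia6, were lowest on array 1. The mean over the 7 chaperones was 9.09, 9.23 and 9.37 on the mutant arrays and 9.23, 9.24 and 9.15 on the wild-type arrays of small intestine. In colon, mutant array 3 was the highest for 11 of 32 genes (34.4%), against 21.7% of all features, and wild-type array 3 was the lowest for 11 (34.4%), against 19.3%. The chaperone mean was 9.02, 9.02 and 9.17 on the mutant and 9.0, 9.02 and 8.92 on the wild-type colonic arrays. Mutant array 3 of each tissue is the array high in heat-shock genes: Hsph1, a cytosolic Hsp110 chaperone, had 8.76, 9.53 and 11.06 on the mutant and 9.74, 10.01 and 9.66 on the wild-type small-intestinal arrays, and 9.10, 8.79 and 10.34 on the mutant and 9.15, 9.0 and 8.79 on the wild-type colonic arrays. The part of the heat-shock response in the ER genes of these arrays was not tested. These arrays were picked for their values, and the counts are descriptions.

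**Figure D5:**
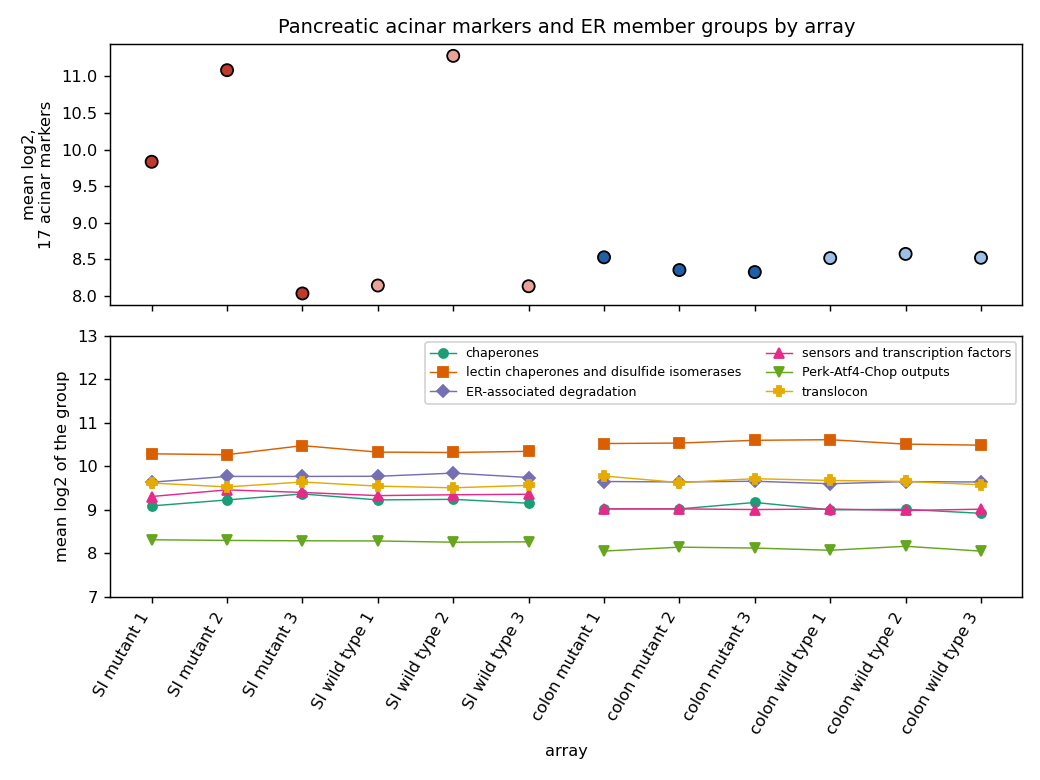
Upper panel, mean log2 value of 17 pancreatic acinar markers on each array; lower panel, mean log2 value of the tested members of each role on the same arrays, with small intestine on the left and colon on the right. Small-intestinal mutant 1, mutant 2 and wild type 2 stand at 9.83, 11.08 and 11.28 in the upper panel, while no role group is highest on all 3 of those arrays.

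Pancreatic acinar cells are rich in ER, so the values of the 3 arrays with acinar markers were set beside the rest. The chaperone mean was 9.09 and 9.23 on mutant arrays 1 and 2 and 9.24 on wild-type array 2, against 9.37 on mutant array 3 and 9.23 and 9.15 on wild-type arrays 1 and 3. The amylase Amy2a5 read 13.76, 14.69 and 8.0 on the mutant and 8.23, 14.90 and 8.12 on the wild-type small-intestinal arrays and stayed under the limit on all colonic arrays. With the marker mean as a covariate and all 3 mutant arrays kept, 0 of 32 genes passed the genotype test in small intestine. Of all features 136 passed there, against 108 without the covariate. The marker mean includes Cela1, Clps and Sycn, which were also bright in colon. With the covariate the tissue test was passed by 13 genes in mutant mice, against 14 without it, and by 14 in wild-type mice, against 16. Beside them stood 6142 and 6444 of all features, against 6301 and 6590 without it. Leaving the 3 arrays out sets mutant array 3, which is high in heat-shock genes, alone against 2 wild-type arrays. Its spread is then taken from the other groups, so counts of that setting are not set beside these.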

How the data were processed

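Illumina BeadChip expression was measured in 12 arrays of 4 groups of 3. The authors deposited log2 values that were quantile normalized over the arrays, with array medians from 7.756 to 7.757, per the file headers and the values themselves. Per the submitters' processing notes limma was used, and the background step and tool versions are not given in the sources used here. A second table of signals has 24 columns whose names match no sample label, and it was not used.

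The values end in a floor near 7.70 (their mode), so that differences of dim probes are understated. The dim-probe limit was put 3 SD above the mode, with the SD of 0.0278 taken from the values below it, at 7.78. Of 45281 probes, the 22737 that exceeded it on 3 or more arrays were kept. Of all probes 34885 had 1 symbol in the platform annotation, 18 several and 10378 none, and names were brought up to date through 34807 gene numbers found in RefSeq. The kept probe with the highest mean stood for its gene, which gave 15909 features, of which 12132 were named genes. Levels are not compared between probes.

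One limma 3.58.1 fit in R 4.3.3 gave each feature a mean per group over all 12 arrays, with 8 residual and 2.15 prior degrees of freedom. Tests were two-sided, Benjamini-Hochberg adjustment ran over all 15909 features within a contrast, the threshold was 0.05, and the script was tested on simulated data. Beside a mean stands the SD and beside a difference the SE of the fit. The number of arrays limits the precision, and an exact permutation test of 3 against 3 could not go below 0.1. Alternatives were the probe filter, the probe rule, the variance prior, array weights, separate fits, replicate blocks, leaving out each array, the pancreatic markers and, added after seeing the data, leaving out the 2 mutant arrays high in heat-shock genes.

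The members, the 6 further pathway lists and the 10 marker lists were chosen with earlier results of these data known. Each member is given by array where it has 1 of the 6 smallest p-values of a genotype contrast or 1 of the 6 largest passing tissue differences; Hspa5 and, in full by array, Amy2a5 were added after their values were seen. Of each further list up to 2 genes with the largest passing tissue difference in wild type are named. Promoter windows are RefSeq's, of GRCm38.p6. Protein sequences are not analysed here.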

Additional observations from a re-analysis of the deposited data

How the results depend on the processing

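The count of ER genes past the genotype test in small intestine was 0 under every alternative except 1, and was 0 to 1 when single arrays were left out: it was 1, Atf4, without mutant small-intestinal array 1. The counts in colon and for the difference between the tissues were 0 under all alternatives run, arrays left out included (0 to 0). The tissue counts were 10 to 14 in mutant mice and 12 to 16 in wild-type mice when single arrays were left out. Beside them stood 5510 to 6343 and 5718 to 6735 of all features. With only probes above the limit on all 12 arrays, 25 genes were tested and 8 passed in mutant and 10 in wild-type mice, since genes dim in one tissue drop out. Of all features 4782 and 4840 passed there. Without the 3 arrays with pancreatic RNA the genotype difference of Herpud1 in small intestine was 0.074, of opposite sign, with 1 mutant array left. Without both arrays high in heat-shock genes, chosen after seeing the data, the genotype counts were 0. The tissue counts were then 10 and 16, beside 5168 and 6503 of all features. No tissue call reversed: of the comparisons of a called gene with an alternative, 41 of 316 in mutant and 31 of 362 in wild-type mice lost the call, for 6 genes (Hspa5, Hsp90b1, Hyou1, Pdia3, Edem1, Derl3) and 5 genes (Hspa5, Hyou1, Edem1, Atf4, Ppp1r15a), and the cause was not tested.

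The replicate number as a block left 0 ER genes in the genotype tests and 13 and 14 in the tissue tests of mutant and wild-type mice. Beside these tissue counts stood 6019 and 6321 of all features. With genotype and number as a random block the tissue counts were 14 and 16, beside 6393 and 6716 of all features. The numbers were not taken to pair the arrays, since the labels do not tie them to mice and not every pair of same-numbered arrays correlated above 0.1: deviations of same-numbered arrays correlated at 0.046, 0.37 and 0.33 between the small-intestinal groups and at 0.14, -0.21 and -0.041 between the colonic groups, with -0.042 to 0.16 between tissues in mutant and -0.011 to 0.059 in wild-type mice. Mutant number 3 was high in heat-shock genes in both tissues, and whether its arrays share a mouse cannot be told from the labels. The count over all features moved with the setting. In the small-intestinal genotype test 57 passed with the number block and 3 with each tissue fitted alone, against 108 with all arrays. Without wild-type small-intestinal array 1 it was 2, and without wild-type small-intestinal array 3 it was 0. At such low shares a count among 32 genes had little room to move, so the 2 counts are not compared. Probes near the floor, among them those of Hspa5, Hyou1, Derl3, Eif2ak3 and Atf6, can show only small differences.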

Other observations

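Probes of one gene did not always show a tissue difference of the same size. Of the genes that passed, 6 in mutant and 7 in wild-type mice had more than 1 probe above the limit, and all of their probes had the same sign. Pdia5, an isomerase lower in small intestine, differed by -1.79 ± 0.10 on its brightest probe, by -1.02 ± 0.038 on the next and by -0.065 ± 0.041 on the third in wild-type mice (limma, SE). Sel1l, the Hrd1 adaptor, differed by 0.66 ± 0.064, 0.33 ± 0.075, 0.062 ± 0.026 and 0.047 ± 0.026 on its 4 probes. Trib3 differed by 1.07 ± 0.073 on its brightest probe and by 0.091 ± 0.030 and 0.091 ± 0.039 on the others, which lay between 7.70 and 7.91 on all arrays. Creb3l1 differed by -0.67 ± 0.069 and -0.14 ± 0.041. The dimmer probes of these genes lay near the floor in at least 1 tissue, where differences are compressed. Atf4 differed by 0.48 ± 0.15 and by 0.10 ± 0.077 in wild-type mice, and its second probe lay between 9.45 and 10.06, above the floor. Which transcripts each probe reads was not analysed here.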
